A study of Mus musculus with 4 samples.

Results

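The regions described here are the sites of H3K27ac that were close to empty in Zscan4- mouse embryonic stem (ES) cells and carried a clear signal in Zscan4+ cells of the same culture line. They were chosen from one list of 23946 regions by their deposited level, in RPKM, the number of reads per kilobase of region scaled to library size. A member had less than 1 RPKM in each Zscan4- library and more than 3 RPKM in each Zscan4+ library. The rule found 777 regions, 3.24% of the list. Both sides of the contrast were used to choose them, so their levels are a description and no test of the difference is drawn from them.

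H3K27ac is acetylation of lysine 27 on histone H3. It is deposited by the acetyltransferases p300 and CBP at active promoters and enhancers, and it separates active enhancers from those that carry only methylated H3K4. The Zscan4 genes code for zinc-finger proteins and are expressed in late 2-cell embryos and, for short periods, in a small share of ES cells, where it is known for its part in telomere maintenance and in bursts of transcription shared with the early embryo. In the RefSeq gene table for GRCm38, Zscan4a to Zscan4f and their pseudogenes are all on chromosome 7.

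The cells were MC1-ZE7 ES cells, on the MC1 (129S6/SvEvTac) background, grown without feeders in serum with LIF and separated by FACS according to their Emerald reporter signal. There were 2 chromatin immunoprecipitation libraries from Emerald- cells, called Zscan4-, and 2 from the high fraction of Emerald+ cells, called Zscan4+. All 4 were made with the same H3K27ac antibody. MC1-ZE7 is a single line, the groups are defined by a reporter and not by Zscan4 protein, and nothing in the labels ties the replicates to separate cultures. A p-value therefore measures no more than how far these 4 libraries spread, and that spread may be technical. The spread used is mostly shared over all listed regions, so a p-value says little of how well the replicates matched at a single region. Library preparation also differed: for replicate 2 of each group PCR came ahead of size selection and fragments of 200 to 500 bp were kept, while for replicate 1 fragments of 200 to 300 bp were kept. Neither an input library nor an mm9 gene annotation or genome was used here, so a level near 0 has no background to set it against, and regions are given by their position on the mouse build mm9 with no gene or sequence. Which genes lie at or near a member was not analysed here.

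Library totals and all read counts given here were estimated from the steps of the RPKM values, as described below. By this estimate the libraries held between 9939090 and 18284500 reads, and the listed regions held between 13.0% and 19.1% of them. Members had few reads in Zscan4- cells, with a median of 4 and 7 in replicates 1 and 2. In Zscan4+ cells the median was 73 and 82 reads, so the higher level is known more precisely than the lower one.

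In Zscan4- replicate 1 the members lay between 0 and 0.99 RPKM with a median of 0.39 RPKM. In Zscan4- replicate 2 they lay between 0 and 0.99 RPKM with a median of 0.40 RPKM. The Zscan4+ levels ran from 3.01 to 33.17 RPKM with a median of 3.83 RPKM in replicate 1, and from 3.03 to 41.81 RPKM with a median of 5.06 RPKM in replicate 2. The groups do not overlap at any member because the rule requires it; both Zscan4+ libraries were above both Zscan4- libraries at 18.6% of all listed regions. The median log2 difference of the members was 2.50 on the log2(RPKM + 0.5) scale, with a range of 1.46 to 5.52, against -0.17 over all regions. All 777 were called higher by limma, a linear model with moderated variances, at an adjusted p of at most 0.05, as were 8.01% of all listed regions; the rule used this contrast and the count adds nothing to it. Without Zscan4- replicate 1 or 2 the test called 766 or 753 of them, and over the whole list its 1917 higher calls became 1101 or 1109, while without Zscan4+ replicate 1 there were 3119.

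**Figure D1:**
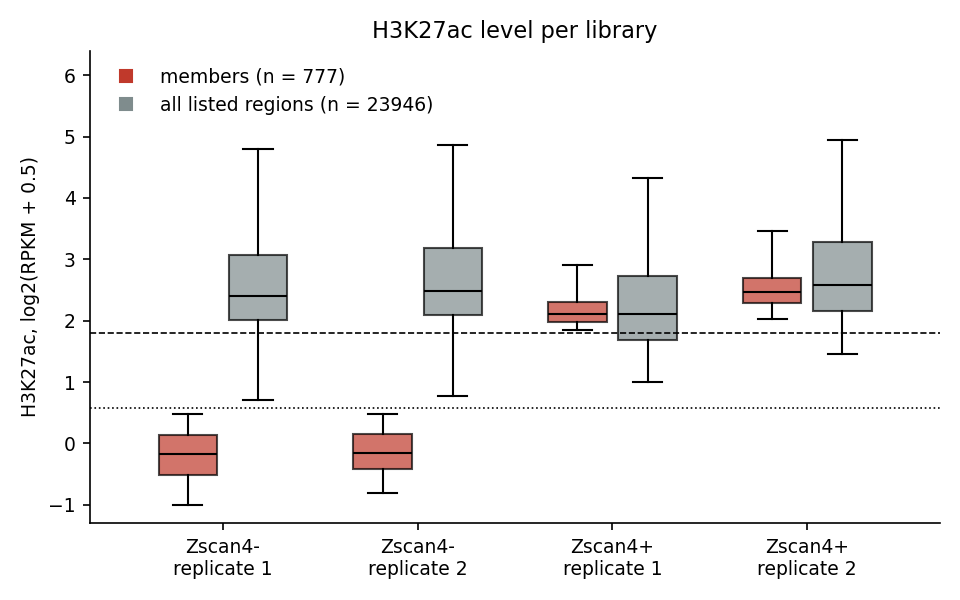
H3K27ac level per library on the log2(RPKM + 0.5) scale for the 777 members (red) and all 23946 listed regions (grey). Boxes span the quartiles with the median as a line, whiskers run from the 5th to the 95th percentile, and the dotted and dashed lines mark 1 and 3 RPKM; in the Zscan4+ libraries the members sit near the middle of the list and not at its top.

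In Zscan4+ cells most members lay near or below the middle of the list, and few reached its upper quartile. The rule itself sets their lower end at 3 RPKM. In Zscan4+ replicate 1, 401 of them were above the median of the whole list, which was 3.8 RPKM, and 54 were above its upper quartile of 6.16 RPKM. In Zscan4+ replicate 2, 277 were above the list median of 5.48 RPKM and 48 above the upper quartile of 9.18 RPKM. Together they held 0.213% and 0.210% of the reads in listed regions in Zscan4- replicates 1 and 2. In Zscan4+ replicates 1 and 2 that share was 2.69% and 2.42%.

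"Only in Zscan4+ cells" holds for the members in the sense of the rule and not as an absence of signal. In the Zscan4- libraries 85 members in replicate 1 and 32 in replicate 2 were at 0 RPKM, and 11 were at 0 in both. By pooled reads, 660 members had more than 3 reads in the Zscan4- libraries together. For 578 members the upper end of the exact 95% counting interval of the pooled Zscan4- level was below 1 RPKM. For 694 the lower end of the pooled Zscan4+ level was above 3 RPKM, and 519 met both. These intervals cover counting error only, since copies made by PCR are not independent molecules. A stricter Zscan4- limit of 0.5 RPKM kept 370 of the 777 regions, and a stricter Zscan4+ limit of 5 RPKM kept 105. After quantile normalization, which gives all libraries one distribution, the rule found 380 regions, of which 326 were members.

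**Figure D2:**
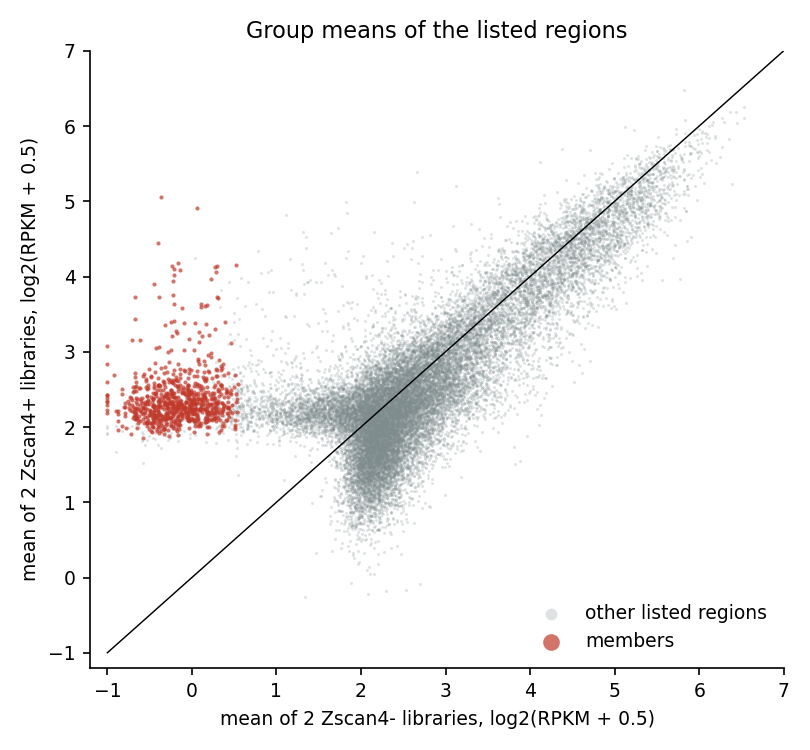
Mean level of the 2 Zscan4+ libraries against that of the 2 Zscan4- libraries for every listed region, on the log2(RPKM + 0.5) scale, with members in red and the line of equal level in black. The members form the left end of a band of similar Zscan4+ level that reaches the main cloud without a gap.

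No gap in the data separates the members from the regions around the limits. Just inside the Zscan4- limit were R00339 on chromosome 1 and R06038 on chromosome 13, at 0.99 RPKM in replicate 1, and R08842 on chromosome 16, at 0.99 RPKM in replicate 2. Just outside were R01505, R02585 and R07688, each at 1 RPKM in its higher Zscan4- library. At the Zscan4+ limit, R01525, R03855 and R21469 had 3.01 RPKM in replicate 1 and were members. R17968 had 3 RPKM in replicate 1, R15054 had 2.99 RPKM in replicate 1 and R17054 had 2.99 RPKM in replicate 2, and they were not. A further 140 regions met the Zscan4- limit and missed the Zscan4+ limit, with Zscan4+ medians of 2.75 and 4.74 RPKM. No listed region was low in both groups, as the higher of the 2 group means was at least 1.95 RPKM at every region, so how the list was drawn up bounds what the rule could find. With the groups exchanged, the same limits were met by 18 regions.

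The limits were also applied to each replicate alone and the chosen regions read in the other. Since no listed region was low in both groups, a region low in Zscan4- cells is listed through its Zscan4+ signal, so the direction in the other replicate is largely fixed by the list and these values are a description. Of the 936 regions that met the limits in replicate 1 alone, 777 (83.0%) also met them in replicate 2, as did 4.29% of all regions. In replicate 2 those 936 had a Zscan4- median of 0.47 RPKM and a Zscan4+ median of 5.04 RPKM, and the Zscan4+ value was the higher at every one. Chosen in replicate 2 alone, 1027 regions met the limits and 777 of them (75.7%) met them in replicate 1, against 3.91% of all regions. Their medians in replicate 1 were 0.43 and 3.71 RPKM, and 1 region was not higher in the Zscan4+ library. The 777 regions shared by both choices are the members themselves.

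Among the members, the Zscan4+ replicates ranked the regions only loosely. Log2 levels of the 777 members correlated at Pearson r = 0.78 and Spearman rho = 0.48 between the Zscan4+ replicates, as a description across regions of the same 2 libraries whose range is cut off at 3 RPKM. Replicate 2 was the higher at 698 members (89.8%), close to the 92.7% of all regions at which it was higher. The median log2 ratio of replicate 2 to replicate 1 was 0.38 for members and 0.57 for all regions. The Zscan4+ replicates differed more than 2-fold at 15 members. Order among members of similar level is therefore within the spread between replicates.

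Of the members, 211 had a mean above 5 RPKM in Zscan4+ cells, 30 above 10 RPKM and 3 above 20 RPKM. The 3 were R20020 on chromosome 7, R22519 on chromosome 9 and R14148 on chromosome 3. R20020 (chr7:111919938-111920243) went from 0 and 0.55 RPKM in the Zscan4- replicates to 33.17 and 32.33 RPKM in the Zscan4+ replicates. R22519 (chr9:46254705-46255004) had 0.34 and 0.75 RPKM against 17.19 and 41.81 RPKM, so its Zscan4+ replicates differed by more than 2-fold. R14148 (chr3:93623645-93623860) had 0 and 0.52 RPKM against 19.84 and 22.79 RPKM. R20020 was the highest member in Zscan4+ replicate 1 and second to R22519 in replicate 2. The Zscan4- levels of all 3 were below 1 RPKM, as the rule requires of every member.

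The next 3 by mean Zscan4+ level were also narrow. R20684 on chromosome 8 had 0 and 0.79 RPKM in the Zscan4- replicates, against 11.76 and 23.48 RPKM. R13247 on chromosome 2 had 0.89 and 0.99 RPKM against 14.46 and 20.2 RPKM, which places it at the Zscan4- limit. R16601 on chromosome 5 had 0.79 and 0.66 RPKM against 14.86 and 19.54 RPKM. The limma standard errors of the log2 difference were close at R22519 and R16601, at 0.356 and 0.353. The Zscan4+ replicates of R22519 nevertheless lay farther apart. Of the 30 members above 10 RPKM, 22 were narrower than 300 bp, and their median width was 234.5 bp. RPKM divides by width, and the reads behind these levels differed: R20020 had 342 pooled Zscan4+ reads, R22519 had 293 and R20684, which has the smallest width in the list, had 126. The median over all 85 members narrower than 300 bp was 41 pooled reads.

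Ranked by reads in place of RPKM, other members led. R19020 (chr7:11751082-11753061) had the most, with 406 and 371 reads in the Zscan4+ libraries and 12 and 8 in the Zscan4- libraries. As RPKM this was 11.22 and 11.78 against 0.61 and 0.23. Relative to library totals the pooled ratio was 31.5, with an exact 95% counting interval of 20.2 to 51.8. R20164 (chr7:126013243-126015163) followed with 8.97 and 10.83 RPKM in the Zscan4+ replicates, against 0.47 and 0.41 RPKM. On chromosome 11, R02738 had 6.8 and 13.33 RPKM against 0.85 and 0.77 RPKM, and R02718 had 8.43 and 9.79 RPKM against 0.22 and 0.9 RPKM. R17384 on chromosome 5 had 6 and 13.82 RPKM against 0.32 and 0.74 RPKM. These 5 were between 1868 and 1979 bp wide, and at each the pooled counts in Zscan4- cells were 20 or more, so both levels are measured.

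Where no Zscan4- read was seen, the fold is given against a floor for the Zscan4- reads, with the Zscan4+ reads taken as counted. Among the 11 members with 0 reads in each Zscan4- library, 6 had the smallest width in the list and 4 lay on chromosome 7. The highest in Zscan4+ cells was R20021 (chr7:111990863-111991084), with 5.94 and 9.95 RPKM, at least 15.9-fold higher against a floor of 3 reads over the group. It lay 70.6 kb from R20020. R21306 on chromosome 8 had 5.11 and 8.22 RPKM (at least 13.0-fold higher), R06136 on chromosome 13 had 4.6 and 6.46 RPKM (at least 10.8-fold) and R11719 on chromosome 2 had 3.83 and 5.87 RPKM (at least 9.45-fold), on the same floor; R12172 on chromosome 2 tied with R11719 at a mean of 4.85 RPKM. With the counting error of the Zscan4+ reads included, the lower ends of the exact 95% intervals were smaller. They were 12.6-fold for R20021, 10.1-fold for R21306, 8.38-fold for R06136 and 7.29-fold for R11719. At these narrow regions 0 reads is a weak statement. By contrast R19018 on chromosome 7, also at 0 in both, was 629 bp wide. It had 98 pooled Zscan4+ reads, at least 26.5-fold higher on the same floor.

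Members had a median width of 1070 bp and ran up to 3548 bp, from the smallest width in the list, against a median of 1111 bp over all listed regions. Their middle was fuller and their ends thinner than in the list. The 140 regions that met only the Zscan4- limit had a median width of 825.5 bp. Their upper quartile was 1094 bp, against 1490 bp for members and 1667 bp for the list. Fewer wide regions than in the list is thus not particular to members. Members from 500 up to 1500 bp numbered 492. The lower part of that range, up to 1000 bp, held 32.9% of members and 25.1% of all regions, and the upper part held 30.4% and 22.5%. At least 1500 bp wide were 187 members (24.1%), against 33.2% of all regions, and narrower than 300 bp were 85 members (10.9%), against 14.0%. These shares were not tested, since regions are not replicates and RPKM itself contains the width.

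**Figure D3:**
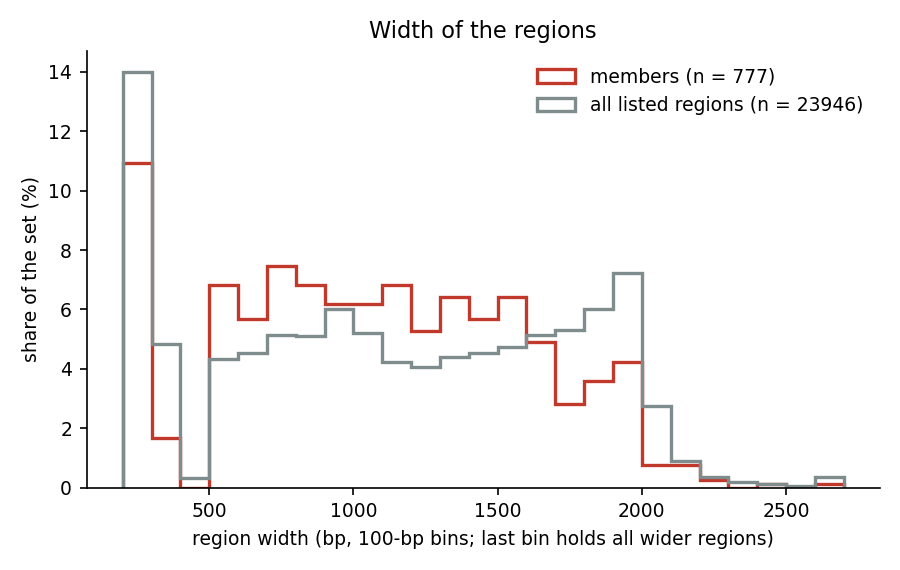
Share of the 777 members (red) and of all 23946 listed regions (grey) by region width in 100-bp bins, with all wider regions in the last bin. Members are more frequent between 500 and 1500 bp and less frequent near 2000 bp than the list.

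The Zscan4+ level of members was highest in the narrowest class and lowest from 500 to 1000 bp. The 85 members narrower than 300 bp had Zscan4+ medians of 4.60 and 6.03 RPKM. The 13 members of 300 to 500 bp had 3.92 and 5.3 RPKM. The 256 members of 500 to 1000 bp had 3.64 and 4.71 RPKM, the 236 of 1000 to 1500 bp had 3.78 and 5.01 RPKM, and the 171 of 1500 to 2000 bp had 4.16 and 5.59 RPKM. The 16 members of at least 2000 bp had 4.09 and 5.74 RPKM. Above 500 bp the Zscan4+ level was thus higher in the wider classes up to 2000 bp in both replicates. The Zscan4- medians stayed between 0.26 and 0.43 RPKM in all 6 width classes.

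The widest members were ordinary in height. R10664, 3548 bp on chromosome 18, rose from 0.2 and 0.27 RPKM to 3.27 and 5.4 RPKM, or 24 pooled reads against 517. R20462, 2419 bp on chromosome 7, had 0.21 and 0.19 RPKM against 3.96 and 5.27 RPKM. R01465, 2256 bp on chromosome 10, had 0.8 and 0.3 RPKM against 3.42 and 4.26 RPKM. R00114 on chromosome 1 reached 5.22 and 7.35 RPKM and R04949 on chromosome 12 reached 6.34 and 6.73 RPKM in Zscan4+ cells. R17276 on chromosome 5, 2221 bp wide, was the weakest of the 6, with 0.95 and 0.89 RPKM against 3.32 and 4.21 RPKM. With Zscan4- replicate 1 left out its adjusted p by limma was 0.0505, and with replicate 2 left out 0.121, given as a description because the rule used the same contrast.

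The most frequent exact widths carried different shares of members. Of the 422 listed regions of the smallest width, 38 (9.0%) were members. Of the 721 regions exactly 228 bp wide 1 (0.139%) was, and of the 575 exactly 500 bp wide 32 (5.57%) were. The direction of the whole classes also differed: the mean level was higher in Zscan4+ cells at 345 of the 422 regions of the smallest width and at 145 of the 721 regions of 228 bp. How the regions were called is not given in the sources used here, and the part of the calling in these counts was not tested.

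Members lay farther from H3K27ac already present in Zscan4- cells than the list as a whole. So did the 140 regions that met only the Zscan4- limit, and their median gap was larger still. A region was taken as marked in Zscan4- cells when it had at least 3 RPKM in both Zscan4- libraries, which held for 19309 regions. The median gap from a member to the nearest such region, edge to edge, was 45.4 kb, with quartiles of 14.5 and 143 kb. The same gap had a median of 20.2 kb for the 3860 other regions not marked in Zscan4- cells, and of 11.2 kb between one marked region and the next. For the 140 regions as low in Zscan4- cells that were not members it was 68.3 kb, so the distance is not particular to members. For the 694 regions that were called higher from a level of at least 1 RPKM in both Zscan4- libraries it was 13.6 kb. These medians were not tested against each other.

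**Figure D4:**
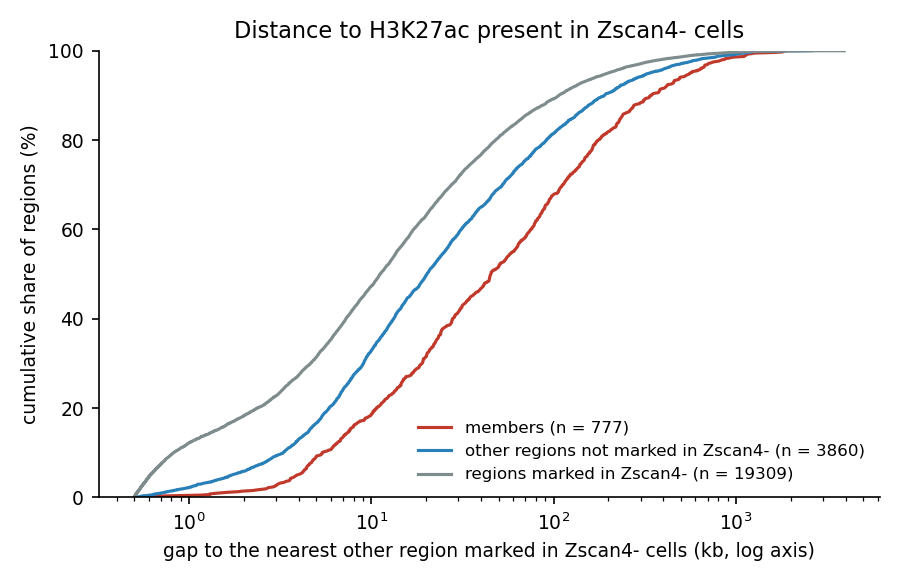
Cumulative share of regions by the edge-to-edge gap to the nearest other region marked in Zscan4- cells, in kb on a log axis, for members (red), other regions not marked in Zscan4- cells (blue) and marked regions (grey). The red curve lies to the right over most of the range, with medians of 45.4, 20.2 and 11.2 kb.

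Within 5 kb of a marked region lay 71 members (9.14%), against 16.6% of the other unmarked regions, and within 10 kb 145 (18.7%), against 32.8%. Of the 140 low regions that were not members, 4.29% lay within 5 kb and 11.4% within 10 kb. Beyond 500 kb lay 46 members (5.92%), against 2.90% of the other unmarked regions and 3.57% of the 140 low regions that were not members. The nearest listed region of any kind was marked in Zscan4- cells for 521 members (67.1%), was another member for 99 (12.7%) and was neither for 157 (20.2%). No other listed region lay within 100 kb of 164 members (21.1%), against 9.20% of all regions. Another listed region lay within that distance of 78.9% of members and of 75% of the 140 low regions that were not members.

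Across members, the Zscan4- medians were lower farther from marked regions, and the Zscan4+ medians were similar. The rule cuts both levels, at 1 and 3 RPKM. In Zscan4+ replicate 1 the quartiles of all members were 3.43 and 4.42 RPKM. The cut thus leaves the Zscan4+ medians little room to differ, and these values are a description. The 145 members within 10 kb of a marked region had Zscan4- medians of 0.51 and 0.54 RPKM. The 204 members at 100 to 500 kb had 0.32 and 0.34 RPKM, and the 46 beyond 500 kb had 0.20 and 0.26 RPKM. In Zscan4+ replicate 1 the medians of the 5 distance classes lay between 3.79 and 3.88 RPKM, and in replicate 2 between 4.84 and 5.15 RPKM. With the stricter Zscan4- limit of 0.5 RPKM the median gap was accordingly 78.2 kb, so the distance depends on how low the Zscan4- limit is set. It was 33.0 kb when a marked region needed 1 RPKM and 108 kb when it needed 5 RPKM.

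At the near end, R04795 on chromosome 12 lay 0.586 kb from a marked region, with 0.2 and 0.9 RPKM against 3.72 and 5.9 RPKM. R20993 on chromosome 8 lay 0.597 kb away, R16343 on chromosome 5 0.814 kb and R01465 on chromosome 10 1.15 kb. The smallest gap between any listed regions was 500 bp. At the far end, R21647 (chr8:103932555-103933789) lay 1864 kb from the nearest marked region, which was also the nearest listed region. It went from 0.16 and 0 RPKM to 4.17 and 4.78 RPKM, or 2 pooled reads against 188. On chromosome 17, R09954 and R09955 lay 573 bp from each other and 1812 and 1813 kb from any marked region. R09954 had 3.56 and 3.27 RPKM and R09955 had 3.4 and 6.26 RPKM in the Zscan4+ libraries. R16658 on chromosome 5 was 1615 kb away, with 3.64 and 3.9 RPKM in Zscan4+ cells.

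Most marked regions beside members passed the test in neither direction. The 695 different marked regions that were nearest to a member had Zscan4- medians of 5.03 and 5.41 RPKM and Zscan4+ medians of 4.28 and 6.14 RPKM. By limma 7 of them were called higher and 31 lower, against 0.559% higher and 7.91% lower among all marked regions. Their median log2 difference was -0.09, against -0.27 for all marked regions. These counts moved with the libraries and the scaling. Without Zscan4+ replicate 1 they were 61 higher and 25 lower, without Zscan4+ replicate 2 14 and 175, without Zscan4- replicate 1 0 and 4, and without Zscan4- replicate 2 0 and 1. With quantile normalization they were 62 and 70, and with the replicate block 10 and 58, so no direction is given for these regions.

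Regions that were themselves weak in Zscan4- cells were more often called higher close to a member. Of the 75 non-members within 10 kb of a member and not marked in Zscan4- cells, 42 (56.0%) were called higher, against 26.7% of all such regions. Their median log2 difference was 1.08, against 0.51, and their Zscan4- level was also lower, at 1.81 and 1.91 RPKM against 2.50 and 2.73 RPKM. The share did not fall steadily with distance, at 29.0% of 155 regions between 10 and 50 kb and 36.2% of 141 between 50 and 100 kb. Without Zscan4- replicate 1, 20 of the 75 (26.7%) were called higher, against 8.63% of such regions, and without Zscan4- replicate 2 also 20, against 9.17%. For non-members of all levels the share called higher was 17.3% of 255 within 10 kb and 4.68% of 16021 beyond 500 kb. Within 10 kb these were 44 regions, of which 42 are the unmarked ones above. Among marked regions the share was 1.11% of 180 within 10 kb and 0.456% of 13378 beyond 500 kb. The part of the lower Zscan4- level in these shares was not tested.

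Most members had no other member within 50 kb. They lay nearer to each other than the other listed regions as a whole lay to them. The median gap from a member to the nearest other member was 696 kb, against 1038 kb from a non-member to the nearest member, and 103 members (13.3%) had another within 50 kb, against 4.62% of non-members. For the 140 low regions that were not members the median gap to a member was 814 kb, and 11.4% had a member within 50 kb. The closeness is thus not particular to members, and these differences were not tested. Chained at gaps of at most 50 kb, 674 members were single, 47 chains held 2 and 3 chains held 3. In all 3 of the longest chains each listed region in the interval was a member. After quantile normalization the share with a neighbour within 50 kb was 7.89% of the 380 regions, and a smaller set has fewer pairs by its size alone.

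The chain on chromosome 7 (chr7:68832057-68888948) held R19681, R19682 and R19683. R19681 had 11.76 and 13.8 RPKM in the Zscan4+ libraries, R19682 had 4.76 and 5.99 RPKM and R19683 had 3.94 and 4.88 RPKM. The highest value of the 3 in Zscan4- cells was 0.53 RPKM, and the nearest marked region was 676 kb away. On chromosome 3 (chr3:94026162-94067688), R14150 had 5.11 and 4.99 RPKM, R14151 had 4.42 and 4.19 RPKM and R14152 had 5.94 and 6.99 RPKM in Zscan4+ cells. R14148, one of the 3 highest members, lies ahead of this chain, with one listed region between them. On chromosome 11 (chr11:94644292-94694081), R03854, R03855 and R03856 were weaker, between 3.01 and 4.03 RPKM. In Zscan4- cells the highest value was 0.94 RPKM on chromosome 3, at R14150 in replicate 1 and close to the limit, and 0.6 RPKM on chromosome 11.

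A longer stretch appeared when the list was read in order along the chromosomes, a view chosen after the data had been seen. Of the 917 regions with less than 1 RPKM in each Zscan4- library, 728 had no such region as their direct neighbour in the list. The longest stretch held 8 consecutive listed regions, R19018 to R19025 (chr7:11590211-12194696, 604 kb), and the next longest held 4. No listed region lay in the 4337 kb before it. In the Zscan4- libraries the 8 regions were between 0 and 0.61 RPKM in replicate 1 and between 0 and 0.23 RPKM in replicate 2. In the Zscan4+ libraries they were between 2.43 and 11.22 RPKM and between 2.95 and 11.78 RPKM.

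Of these 8, 5 were members. R19018 had no Zscan4- read in either library and 4.61 and 4.49 RPKM in Zscan4+ cells. R19019 had 0 and 0.09 RPKM against 3.16 and 4.82 RPKM. R19020, the member with the most Zscan4+ reads, stood highest of the 8. R19022 had 0.13 and 0 RPKM against 4.27 and 5.55 RPKM, and R19023 had 0 and 0.06 RPKM against 5.84 and 6.11 RPKM. The others, R19021, R19024 and R19025, missed the Zscan4+ limit in replicate 1 at 2.43, 2.75 and 2.73 RPKM. Read counts in Zscan4- cells were 0 or 1 in replicate 1 at every region of the stretch but R19020.

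The stretch ended at R19026, 204 kb on, which had 3.06 and 3.7 RPKM against 3.04 and 3.41 RPKM and passed the test in neither direction. One more member, R19027, followed with 0.19 and 0.11 RPKM against 3.58 and 4.9 RPKM. The Zscan4 genes are also on chromosome 7, but whether the stretch lies among them was not determined here, since the gene table used is on another build. With a Zscan4- limit of 0.5 RPKM or with quantile normalization the longest stretch was 5 regions, again ending at R19025, and with either Zscan4- library left out it was 8.

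**Figure D5:**
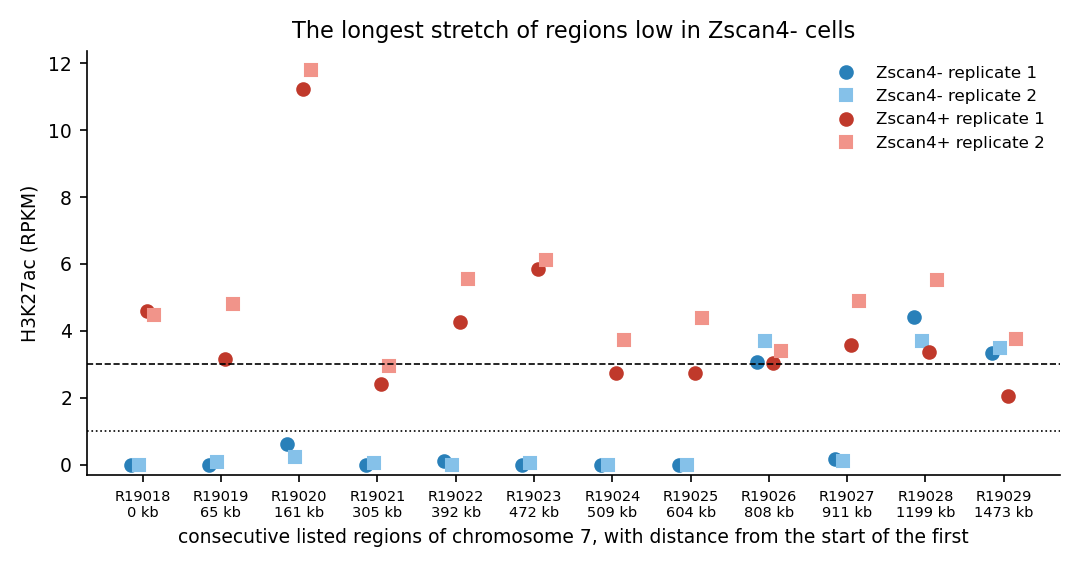
H3K27ac in RPKM at 12 consecutive listed regions of chromosome 7 in each of the 4 libraries, with the distance of each region from the start of the first; the dotted and dashed lines mark 1 and 3 RPKM. From R19018 to R19025 the Zscan4- values (blue) lie at or near 0 and the Zscan4+ values (red) between 2.43 and 11.78 RPKM, and R19026 has similar values in all 4 libraries.

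Stretches made up of members alone held at most 4 regions. Also on chromosome 7, R19644 to R19647 (chr7:57373377-58418937) had 3.25 to 3.96 RPKM in Zscan4+ replicate 1 and 3.91 to 5.87 RPKM in replicate 2, with at most 0.36 RPKM in a Zscan4- library. A stretch from R19680 to R19683 includes the chain of 3 on chromosome 7 described above. It spans 2376 kb, against 56.9 kb for the chain. Stretches are neighbours in the list and can lie far apart on the chromosome. R19680 had 0.5 and 0.38 RPKM against 7.02 and 8.18 RPKM. On chromosome 15, R07374, R07375 and R07376 (chr15:5631354-5697386) included R07375, at 0.43 and 0.72 RPKM against 9.86 and 14.02 RPKM. Its neighbour R07376 had 0.33 and 0.37 RPKM against 7.45 and 10.02 RPKM. Chromosome 7 thus held all of the stretches of 4 or more, while its share of members, 3.11%, was close to the 3.24% of the whole list.

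By chromosome, members made up between 2.02% of the listed regions, on chromosomes 4 and 17, and 4.22%, on chromosome 13, with none among the 4 regions of the Y chromosome. Chromosome 2 held the most, at 74, and its share was 4.20%. Chromosome 8 held 62 and chromosome 5 held 61, or 3.91% and 4.17% of their listed regions. The share on chromosome 7 was 3.11% (49 regions) and on the X chromosome 2.16% (13 regions). Per 10 Mb of listed span, the count ran from 0.809 on the X chromosome to 4.83 on chromosome 8. The density of all listed regions ran from 37.5 to 151 per 10 Mb, lowest also on the X chromosome, and the densities correlated at Pearson r = 0.61 (Spearman rho 0.49) over 20 chromosomes of the same libraries.

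Along the chromosomes the members followed the list within a few percentage points. When the listed span of each chromosome was divided into 5 equal parts, counted from the end where the coordinates start, the parts held 19.4%, 18.4%, 20.5%, 21.0% and 20.7% of the members. They held 20.8%, 17.4%, 18.3%, 19.3% and 24.3% of all listed regions. Mouse autosomes and the X chromosome have their centromere at the end where the coordinates start. Within 5 Mb of the first listed region lay 39 members (5.02%), against 4.90% of all regions, and within 5 Mb of the last lay 30 (3.86%), against 4.69%.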

How the data were processed

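H3K27ac ChIP-seq of 2 Zscan4- and 2 Zscan4+ libraries was read from tables of RPKM per region, deposited by the authors with 2 decimals, per the file headers. Bowtie, HOMER and the build mm9 are named without versions, per the submitters' processing notes, and how regions were called is not given in the sources used here. The 4 tables list the same regions. Coordinates are as deposited.

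Read numbers were recovered as the step of RPKM times width in each library. In each library 97.1% to 100.0% of the values below 50 reads were whole to within 0.1, and a count of 0 allows up to 3 reads. Groups were fitted with limma 3.58.1 in R 4.3.3 on log2(RPKM + 0.5) after a filter on the mean at 0.5 RPKM, which all regions passed, with trended variance, two-sided, Benjamini-Hochberg adjusted, threshold 0.05. The fit, the gap code and the depth recovery were tested on simulated data. Gaps, widths and stretches used Python 3.11.15.

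Named regions are the 6 highest, 6 widest and 6 with most Zscan4+ reads, the 4 nearest to and 4 farthest from a marked region, chains of at least 3, the 4 highest of those at 0, and 3 on each side of each limit. Regions in the stretches and R19027 were chosen after their values were seen. Members, lists and limits were chosen with earlier results of these data known. Gene lists could not be used without mm9 annotation. Replicate numbers pair the libraries, since replicate 2 had its own preparation. Deviations correlated at 0.352 between groups. The main fit left this pairing out and called 1917 regions higher and 1632 lower. With the replicate block there were 2238 higher and 2603 lower, so which direction had more calls depended on it. Alternatives were other limits, scalings, pseudocounts, minimums, a replicate block, voom and leaving out each library.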

Additional observations from a re-analysis of the deposited data

How the results depend on the processing

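The 777 regions became 370 with a Zscan4- limit of 0.5 RPKM, 105 with a Zscan4+ limit of 5 RPKM and 380 with quantile normalization. In the leave-one-library-out sets they numbered between 790 and 922. Leaving out a library drops a condition of the rule, so these sets hold all 777 and could only grow. Their widths, gaps and neighbour shares are thus those of larger sets that contain the members. Applied to replicate 1 alone the rule gave 936 regions, and to replicate 2 alone 1027, both again holding all 777. The members' median width of 1070 bp was 1157 bp among regions wider than 300 bp and between 1013 and 1051.5 bp in the leave-one-library-out sets. The median gap to a marked region of 45.4 kb was 78.2 kb with the lower Zscan4- limit, 81.6 kb with quantile normalization, 33.0 and 108 kb with marks of at least 1 and 5 RPKM, and between 40.3 and 48.6 kb in the leave-one-library-out sets. The share with another member within 50 kb, 13.3%, was 7.03% with the lower Zscan4- limit, 7.62% with the higher Zscan4+ limit, 7.89% with quantile normalization, 10.4% among regions wider than 300 bp, 3.86% and 19.8% within 10 and 100 kb, and between 13.5% and 14.3% in the leave-one-library-out sets. Higher calls over all regions, 1917, numbered 2238 with the replicate block, 3409 with median centring, 3358 after quantile normalization, 5287 after adding the replicate block to that, and between 1101 and 3119 with each library left out in turn. The median log2 difference over all regions was -0.17, and -0.04 after quantile normalization. All 777 members were called higher in every other limma setting except a minimum of 2 RPKM, which kept 708 members, all called, and the fits without Zscan4- replicate 1 (766) or Zscan4- replicate 2 (753), where the remaining Zscan4- library borrows its spread from the Zscan4+ group. The blocked fit changed no call of a member. Of 714 values of the named regions under other settings, 709 stayed past the threshold and 5 did not, all without a Zscan4- library, at R17276, R06038, R02585 and R07688. The cause was not tested. Members were chosen on this same contrast and most named regions are members, so these counts are a description. The settings without a minimum or with a looser threshold could not remove a call. Depth limits the Zscan4- levels, where the median member had 4 and 7 reads.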
